A study of Mus musculus with 12 samples.

Results

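A set of 10 genes that govern G1 was followed across 4 groups of primary mouse microglia, the macrophages that reside in brain tissue. They were the D cyclin genes Ccnd1, Ccnd2 and Ccnd3, the kinase genes Cdk4 and Cdk6, the inhibitor genes Cdkn1a and Cdkn1b, and Myc, Mxd4 and Max of the Myc network. The genes were chosen by name, not by their values, and each symbol matched 1 gene of the deposited table, so that 10 of 46262 genes are described, through 67 of 115879 transcripts. Of these, 9 reached the level set for testing, which asked for 1 TPM or more in 3 or more libraries, as did 12419 genes in all. Cdkn1b did not reach it.

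The study grew microglia out of mixed glial cultures from forebrain or cerebellum, neonatal by the name of the deposited table, and kept them for 24 hours with CSF-1 (20 ng/ml) or with IL-34, used at 100 ng/ml. Each region was combined with each ligand, which makes 4 groups, each of WT genotype and each with 3 libraries, which the design text attributes to independent cultures. All 4 groups received a ligand, there was no group without one, and the ligands were given at different doses, so ligand and dose cannot be told apart. The age in days, the sex and the number of animals behind a culture are not given in the labels.

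CSF-1 and IL-34 both bind the receptor tyrosine kinase CSF1R, on whose signal microglia depend for survival and division. Such signals raise D cyclins, which activate CDK4 and CDK6, and the active kinases phosphorylate RB and so release E2F factors to switch on the genes of DNA replication. MYC, bound to its partner MAX, activates genes of growth at E-box sequences, and MXD4 competes for MAX and represses instead, while the CDKN1 proteins p21 and p27 bind cyclin and kinase complexes.

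Promoter sequence is shown because MYC and MXD4, each with MAX, are known to bind E-boxes, and the same 10 genes could carry them. The RefSeq promoters of GRCm38.p6, 250 bases before and 50 bases after a transcript start, held 7 of the 10 genes in 9 windows, and these were searched for the E-box CACGTG, which reads the same on both strands. Of all 32851 promoters of that length, 7.15% held it. Of the 9 windows, 4 did, those of Cdk4, Cdk6, Mxd4 and Max, and the windows of Ccnd3, Cdkn1a and Cdkn1b did not. Below, capitals mark the E-box and each stretch runs 5′ to 3′ on the strand of the gene.
Cdk4, chr10:127063345-127063534, plus strand: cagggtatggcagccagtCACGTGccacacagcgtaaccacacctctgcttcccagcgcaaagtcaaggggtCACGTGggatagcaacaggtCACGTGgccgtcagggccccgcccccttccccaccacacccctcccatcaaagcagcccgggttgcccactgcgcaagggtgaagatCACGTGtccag
Cdk6, chr5:3343661-3343690, plus strand: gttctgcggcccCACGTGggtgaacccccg
Mxd4, chr5:34187912-34187941, minus strand: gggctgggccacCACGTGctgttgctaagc
Max, chr12:76962237-76962263, minus strand: ggtgagcccggtCACGTGttagggggc
The Cdk4 window had 4 matches, which begin 172, 118, 98 and 11 bases before the start, and only 8 promoters in the table (0.0244%) had 4 or more. In Cdk6 the match begins 220 bases before the start and in Mxd4 219 bases before it. The match in Max begins 3 bases before the start and runs across it. These are matches of letters only, and binding was not measured.

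Levels are in TPM, the unit in which the authors deposited each transcript, summed here per gene. TPM corrects for transcript length and puts every library on a total of 1000000, so read depth is unknown and precision rests on the spread between the 3 libraries of a group. Genes at 1 TPM or more numbered 11740 to 11904 per library. The 3 cerebellar IL-34 libraries stood apart in that transcripts under 600 nt held 0.947 to 3.31% of their TPM, against 0.0269 to 0.555% in the 9 others. Of these genes, Ccnd2 and Cdk6 drew the largest shares of their TPM from transcripts under 1000 nt, 39.6 and 42.8%. The microglial marker genes summed to between 10515 and 11104 TPM in the 12 libraries. The neuronal gene Neurod1 and the endothelial gene Cldn5 were listed at 0 in all 12, but other markers of these cells were not absent. The endothelial marker Flt1 lay between 3.61 and 8.47 TPM and the neuronal marker Map2 between 0.0970 and 2.35 TPM. Fold changes below are differences of log2(TPM + 1), IL-34 minus CSF-1 or cerebellum minus forebrain, with a limma standard error (SE) and a p adjusted by Benjamini-Hochberg over 12419 genes, and a gene is said to have risen or fallen where that p was under 0.05. In bulk libraries such as these, fewer cells that express a gene and less RNA per cell cannot be told apart.

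With IL-34, Ccnd1, Ccnd3, Cdk6, Cdkn1a, Myc and Max were lower and Mxd4 was higher than with CSF-1, as the mean of both regions. Thus 7 of the 10 genes, of 9 tested, passed in limma, where 13.4% of all genes tested did. Of these, 6 fell, against 10.7% of all genes, and 1 rose, against 2.73%. Scaling by the median of ratios, in place of TPM as deposited, turned the split over all genes from 339 higher and 1328 lower to 704 higher and 623 lower, and quantile normalization gave 474 and 735. Among the 9 tested genes both gave 1 higher and 5 lower, with Max no longer passing. The median log2 fold change was -0.39 over the 9 tested genes and -0.07 over all 12419. Cdk4 and Ccnd2 did not pass, with log2 fold changes of -0.06 (SE 0.05, limma adjusted p = 0.478) and -0.39 (SE 0.22, limma adjusted p = 0.249). In 5 genes, Ccnd1, Ccnd3, Cdk6, Cdkn1a and Myc, every IL-34 library lay below every CSF-1 library within each region, which 6.35% of all genes did in that direction. Under other settings 3 to 7 of the genes passed, the lowest count when each gene was reduced to its most abundant transcript.

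**Figure D1:**
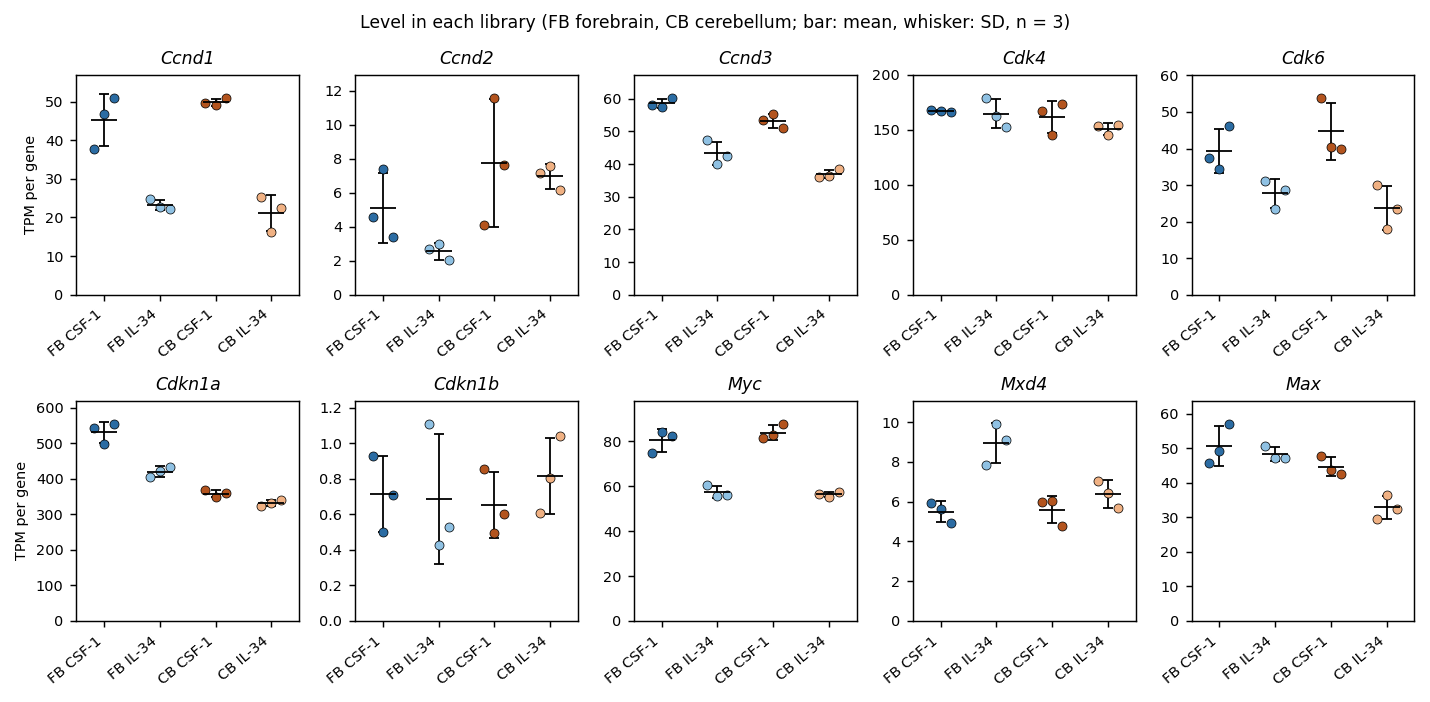
TPM of each of the 10 genes in each library, by region and ligand (FB forebrain, CB cerebellum); points are libraries, horizontal bars are means and whiskers are SD, n = 3. Ccnd1, Ccnd3, Cdk6, Cdkn1a and Myc are lower with IL-34 in both regions without overlap, Mxd4 is highest in forebrain with IL-34, and Cdkn1b lies between 0.429 and 1.11 TPM throughout.

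Ccnd1 (ENSMUSG00000070348, GRCm38 chr7:144929931-144939925, minus strand) encodes cyclin D1, the D cyclin most often tied to growth factor signals. In forebrain the CSF-1 libraries had 37.8, 46.7 and 50.9 TPM and the IL-34 libraries 24.7, 22.7 and 22.2 TPM. In cerebellum these were 49.7, 49.0 and 50.8 TPM with CSF-1 and 25.2, 16.1 and 22.4 TPM with IL-34. The groups did not overlap, and the highest IL-34 library of either region lay well under the lowest CSF-1 library. Group means were 1.95-fold higher with CSF-1 in forebrain and 2.35-fold higher in cerebellum. The log2 fold change was -0.92 (SE 0.14, limma adjusted p = 0.0122) in forebrain, -1.21 (SE 0.14, limma adjusted p = 0.00138) in cerebellum and -1.07 for the mean of both, the last of which passed in all 12 fits that left out 1 library and under all 11 other settings. In forebrain alone Ccnd1 no longer passed without CSF-1 replicate 2 or 3 or IL-34 replicate 2 or 3, with adjusted p up to 0.0674.

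Ccnd3 (ENSMUSG00000034165, chr17:47505051-47599691, plus strand), the gene of cyclin D3, had smaller differences and a narrow spread. The forebrain libraries had 58.0, 57.6 and 60.2 TPM with CSF-1 and 47.3, 40.1 and 42.4 TPM with IL-34. The cerebellar libraries had 53.5, 55.4 and 50.9 TPM with CSF-1 and 36.0, 36.4 and 38.5 TPM with IL-34. No library of one ligand reached into the range of the other in either region. Group means fell by 26.2% in forebrain (log2 fold change -0.43, SE 0.07, limma adjusted p = 0.0105) and fell by 30.7% in cerebellum (-0.52, SE 0.07, limma adjusted p = 0.00225). The forebrain difference did not pass without CSF-1 replicate 3 or IL-34 replicate 2, where the adjusted p was at most 0.0607.

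Ccnd2 (ENSMUSG00000000184, chr6:127125162-127152193, minus strand), the gene of cyclin D2, was the lowest of the 3 D cyclin genes in every group and the only one that did not pass between ligands. Its forebrain libraries had 4.57, 7.41 and 3.39 TPM with CSF-1 and 2.66, 2.99 and 2.01 TPM with IL-34, which do not overlap. The cerebellar libraries had 4.08, 11.6 and 7.60 TPM with CSF-1 and 7.15, 7.57 and 6.17 TPM with IL-34, so that all 3 IL-34 libraries lay inside the CSF-1 range. The log2 fold change was -0.74 in forebrain (SE 0.30, limma adjusted p = 0.293) and -0.05 in cerebellum (SE 0.30, limma adjusted p = 0.934). The SE of Ccnd2 was the largest of the 9 tested genes in these comparisons, and a transcript of 627 nt, Ccnd2-206, above 0 in 8 of 12 libraries, carried 36.2% of the gene.

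Summed over the 3 genes, D cyclin RNA was 109 ± 7.48 TPM (SD, n = 3 here and below) with CSF-1 and 69.0 ± 4.89 TPM with IL-34 in forebrain, and 111 ± 4.52 and 65.2 ± 4.44 TPM in cerebellum. Ccnd1 made up 41.3 ± 3.43 and 45.0 ± 2.38% of that sum with CSF-1 in forebrain and cerebellum, and 33.6 ± 0.782 and 32.4 ± 5.09% with IL-34. Ccnd3 took the larger part in all 4 groups, from 48.1 ± 1.68% in cerebellum with CSF-1 to 62.6 ± 1.52% in forebrain with IL-34. The mix thus leaned from Ccnd1 toward Ccnd3 with IL-34, as a description of these libraries that was not tested.

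The kinase genes parted. Cdk6 (ENSMUSG00000040274, chr5:3341485-3531008, plus strand) had 37.4, 34.4 and 46.2 TPM with CSF-1 in forebrain against 31.2, 23.4 and 28.6 TPM with IL-34. In cerebellum it had 53.8, 40.4 and 39.9 TPM with CSF-1 against 29.9, 17.9 and 23.4 TPM with IL-34. The ligands did not overlap in either region, but the spread within groups was wide. The log2 fold change was -0.90 in cerebellum (SE 0.19, limma adjusted p = 0.0148) and -0.49 in forebrain (SE 0.19, limma adjusted p = 0.253), and the difference between regions did not pass either (limma adjusted p = 0.548). In cerebellum the call ended without CSF-1 replicate 1 or IL-34 replicate 2 (adjusted p at most 0.0638). Summed over transcripts of 1000 nt or more, both regions passed, at -0.59 in cerebellum and -0.41 in forebrain (limma adjusted p = 0.000872 and 0.0149). With trends of length and GC content removed as well, these were -0.33 and -0.34 (limma adjusted p = 0.0206 and 0.0239). With the length floor, defined below, as a covariate, neither cerebellum (-0.54, limma adjusted p = 0.426) nor the mean of both regions (limma adjusted p = 0.0532) passed.

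Cdk4 (ENSMUSG00000006728, chr10:127063534-127067920, plus strand), whose promoter with 4 E-boxes is shown above, lay between 145 and 179 TPM in all 12 libraries. Group means were 167 ± 0.834 and 165 ± 13.2 TPM in forebrain with CSF-1 and IL-34, and 162 ± 14.8 and 151 ± 5.27 TPM in cerebellum. All 4 groups sat close together. The log2 fold changes between ligands of -0.02 in forebrain and -0.10 in cerebellum did not pass (SE 0.07 each, limma adjusted p = 0.942 and 0.401), and their sign turned under some scalings. Per length, Cdk4 RNA exceeded Cdk6 RNA 4.31 ± 0.644 and 3.68 ± 0.623 times with CSF-1 in forebrain and cerebellum, and 6.0 ± 0.834 and 6.61 ± 1.48 times with IL-34, with no overlap between ligands in either region.

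Cdkn1a (ENSMUSG00000023067, chr17:29090976-29100727, plus strand), the gene of p21 and a classic target of p53, was the most abundant of the 10 genes. It had 543, 498 and 553 TPM in the forebrain CSF-1 libraries and 404, 421 and 435 TPM in the forebrain IL-34 libraries. In cerebellum it had 367, 348 and 359 TPM with CSF-1 and 323, 332 and 341 TPM with IL-34. All 6 forebrain libraries lay above all 6 cerebellar libraries, and within each region every IL-34 library lay below every CSF-1 library. Group means fell by 21.0% with IL-34 in forebrain (log2 fold change -0.34, SE 0.05, limma adjusted p = 0.00927), a call that ended without IL-34 replicate 2 (adjusted p = 0.0570). In cerebellum the log2 fold change was -0.11 (SE 0.05, limma adjusted p = 0.168).

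Cdkn1b (ENSMUSG00000003031, chr6:134920401-134925513, plus strand), the gene of p27, which holds resting cells out of the cycle, was at the other end of the scale. Its 12 libraries lay between 0.429 and 1.11 TPM, with group means between 0.652 and 0.817 TPM, and all 4 groups overlapped. It was not tested in the fit used throughout. With no filter on low values its log2 fold change for the mean of both regions was 0.05 (SE 0.12, limma adjusted p = 0.851). Among other inhibitor genes, Cdkn2d lay between 14.2 and 18.9 TPM as group means, Cdkn2b and Cdkn2c between 4.53 and 7.21 TPM, and Cdkn2a at or under 0.151 TPM. Cdkn1c had 0.537 ± 0.286 and 0.325 ± 0.429 TPM in forebrain with CSF-1 and IL-34. In cerebellum it had 2.39 ± 0.478 and 2.31 ± 2.23 TPM.

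Myc (ENSMUSG00000022346, chr15:61985391-61990374, plus strand) had the smallest p of the 9 tested genes between ligands, as the mean of both regions (log2 fold change -0.52, SE 0.04, limma adjusted p = 7.58e-05). Forebrain libraries had 74.8, 84.2 and 82.2 TPM with CSF-1 and 60.7, 55.5 and 56.2 TPM with IL-34. Cerebellar libraries had 81.4, 82.6 and 87.5 TPM with CSF-1 and 56.4, 55.2 and 57.5 TPM with IL-34. The ligands were apart in both regions, and for a given ligand the regions overlapped. Myc fell by 28.6% in forebrain (log2 fold change -0.48, SE 0.06, limma adjusted p = 0.00623) and fell by 32.8% in cerebellum (-0.56, SE 0.06, limma adjusted p = 0.000721), and passed in all 12 fits that left out 1 library in each region. Reduced to its most abundant transcript it did not pass in forebrain (-0.52, limma adjusted p = 0.243), in cerebellum (-0.17, limma adjusted p = 0.583) or for the mean of both (limma adjusted p = 0.115), nor in forebrain when those 6 libraries were fitted alone (limma adjusted p = 0.0997). Its relatives Mycn and Mycl were under 1 TPM as group means.

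Mxd4 (ENSMUSG00000037235, chr5:34173883-34187720, minus strand), a MAX-binding repressor that opposes MYC, was the 1 gene that rose. Forebrain libraries had 5.96, 5.61 and 4.92 TPM with CSF-1 and 7.86, 9.89 and 9.12 TPM with IL-34. In cerebellum it had 5.98, 6.04 and 4.8 TPM with CSF-1 and 7.04, 6.43 and 5.66 TPM with IL-34. The forebrain groups did not overlap, and the cerebellar groups did. The log2 fold change was 0.61 in forebrain (SE 0.12, limma adjusted p = 0.0400), 0.16 in cerebellum (SE 0.12, limma adjusted p = 0.402) and 0.39 for the mean of both (SE 0.09, limma adjusted p = 0.0160). The forebrain call was at the edge: it held in 4 of 12 fits that left out 1 library, with adjusted p from 0.0354 to 0.190, and not with the replicate number as a block (adjusted p = 0.0614) or without the 3 cerebellar IL-34 libraries (adjusted p = 0.0684).

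The other MAX-binding repressors, Mxd1, Mxi1, Mxd3, Mnt and Mga, gave 0 of 5 calls in limma for the mean of both regions. Of all genes tested, 13.4% passed there, so 0 of 5 does not set Mxd4 apart. Their log2 fold changes ran from -0.33 to 0.12, with a smallest limma adjusted p of 0.0727. Mxd3 was low, at 0.924 to 1.38 TPM as group means. Mxi1, at 21.2 to 24.3 TPM, and Mga, at 24.9 to 41.5 TPM as group means, were more abundant than Mxd4. The ratio of Myc to Mxd4 RNA was 14.8 ± 2.09 with CSF-1 and 6.5 ± 1.09 with IL-34 in forebrain, and 15.2 ± 2.64 and 8.92 ± 1.11 in cerebellum. Those ratios did not overlap between ligands in either region and were not tested.

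Max (ENSMUSG00000059436, chr12:76937269-76962201, minus strand), the shared partner of MYC and MXD4, was lowest in cerebellum with IL-34. Forebrain libraries had 45.6, 49.1 and 56.9 TPM with CSF-1 and 50.6, 47.3 and 47.2 TPM with IL-34, which overlap. Cerebellar libraries had 47.8, 43.7 and 42.6 TPM with CSF-1 and 29.7, 36.5 and 32.5 TPM with IL-34, which do not. The log2 fold change was -0.43 in cerebellum (SE 0.09, limma adjusted p = 0.0170) and -0.06 in forebrain (SE 0.09, limma adjusted p = 0.854). The cerebellar call ended without CSF-1 replicate 1 or IL-34 replicate 1 (adjusted p up to 0.0688), and that for the mean of both regions (-0.25, limma adjusted p = 0.0331) ended in 8 of 12 such fits and with the replicate number as a block (adjusted p = 0.0638). Reduced to its most abundant transcript, Max did not pass in cerebellum (-0.10, limma adjusted p = 0.871). Nor did it with the length floor as a covariate (-0.31, limma adjusted p = 0.410).

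**Figure D2:**
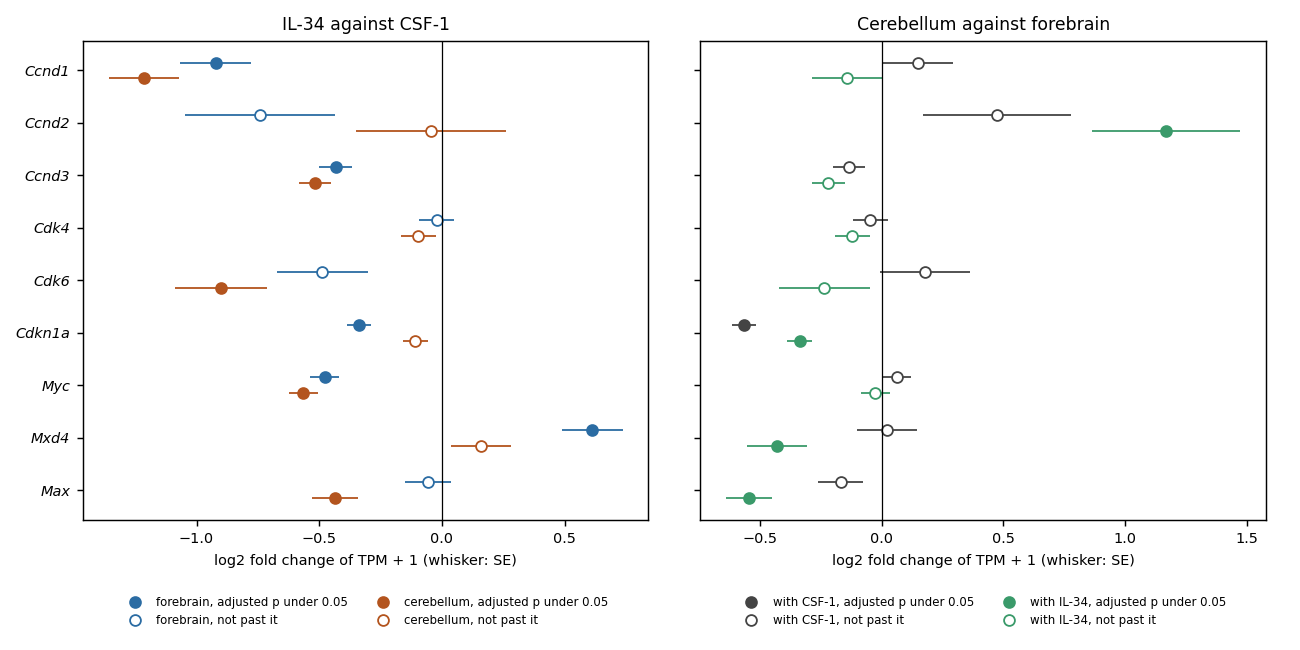
Log2 fold change of TPM + 1 for the 9 tested genes with the limma standard error, on the left IL-34 against CSF-1 in forebrain and cerebellum and on the right cerebellum against forebrain with CSF-1 and with IL-34; filled points have an adjusted p under 0.05. Ccnd1, Ccnd3 and Myc are filled on the left in both regions, and Cdkn1a is filled on the right with both ligands.

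By region, 5 genes passed between ligands in forebrain, where 1.2% of all genes passed. Of these, 4 were lower, against 0.773% of all genes, and 1 was higher, against 0.427%. In cerebellum 5 passed, where 12.8% of all genes did, and all 5 were lower, against 9.82%. Ccnd1, Ccnd3 and Myc passed in both regions, Cdkn1a and Mxd4 passed in forebrain, and Cdk6 and Max passed in cerebellum. The forebrain count was 3, 2, 1 and 3 without CSF-1 replicate 2, CSF-1 replicate 3, IL-34 replicate 2 and IL-34 replicate 3, in turn, 4 without the 3 cerebellar IL-34 libraries, and 0 when the 6 forebrain libraries were fitted alone, a fit that called 0 of 12419 genes (7 of the 9 tested genes and 1646 genes in all had an unadjusted p under 0.05). With a library's length floor (the 1 percent quantile of length over its expressed transcripts) as a covariate, the cerebellar count was 1, Myc, in a fit that called 37 of 12419 genes. There the log2 fold changes of Ccnd1 and Ccnd3, which lost their calls, were -1.03 and -0.41 (limma adjusted p = 0.0905 and 0.119). The part of transcript length in these differences was not tested.

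Whether the ligand difference itself differed between regions was tested as an interaction, and 0 of the 9 tested genes passed in limma, where 0.145% of all genes did. At an unadjusted p under 0.05, which 12.1% of all genes reached, there were 3, Cdkn1a (interaction 0.23, SE 0.07, limma adjusted p = 0.30), Mxd4 (-0.45, SE 0.17, limma adjusted p = 0.354) and Max (-0.38, SE 0.13, limma adjusted p = 0.327). The calls in 1 region and not in the other are therefore not shown to differ between regions.

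Between regions the gene that stood out was Cdkn1a. With CSF-1 it was the 1 gene of 10 that passed, where 6.71% of all genes did, and it fell by 32.6% from forebrain to cerebellum (log2 fold change -0.57, SE 0.05, limma adjusted p = 7.72e-05). With IL-34 it fell by 20.9% (-0.34, SE 0.05, limma adjusted p = 0.00188). The CSF-1 call held in all 12 fits that left out 1 library and under all 13 other settings. Ccnd3 was also lower in cerebellum without overlap under either ligand, as were 12.2 and 18.9% of all genes with CSF-1 and IL-34. Its log2 fold changes of -0.14 and -0.22 did not pass (limma adjusted p = 0.249 and 0.0505). Summed over transcripts of 1000 nt or more, they were -0.24 and -0.27 and passed (limma adjusted p = 0.0376 and 0.0158), as they did with trends removed (limma adjusted p = 0.00733 and 0.00583).

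With IL-34, 4 of the 10 genes passed between regions, where 13.5% of all genes did. Of these, 1 was higher in cerebellum, against 5.27% of all genes, and 3 were lower, against 8.22%. Ccnd2 rose, from 2.56 ± 0.499 TPM in forebrain to 6.96 ± 0.717 TPM in cerebellum (log2 fold change 1.17, SE 0.30, limma adjusted p = 0.0284), and Max (-0.55, SE 0.09, limma adjusted p = 0.00389), Cdkn1a and Mxd4 (-0.43, SE 0.12, limma adjusted p = 0.0404) fell. The ratio of Ccnd1 to Ccnd2 RNA was 9.30 ± 1.71 in forebrain and 3.10 ± 0.835 in cerebellum with IL-34. Summed over transcripts of 1000 nt or more, the Ccnd2 difference was 0.63 and did not pass (limma adjusted p = 0.0504). With trends of length and GC content removed as well it was 0.66 and passed (limma adjusted p = 0.0460), and with the length floor as a covariate it was 0.32 (limma adjusted p = 0.800). With CSF-1 the Ccnd2 difference between regions was 0.72 over transcripts of 1000 nt or more and passed there (limma adjusted p = 0.0383). Ccnd2 passed in 7 and Mxd4 in 5 of the 12 fits that left out 1 library, and 0 of the 9 tested genes passed with the length floor as a covariate.

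At the level of transcripts, 46 of the 67 of these genes were above 0 in at least 1 library. Ccnd1 was split between the coding transcript Ccnd1-201 (3740 nt), with 60.3% of its TPM, and Ccnd1-203 (1773 nt), annotated as a retained intron, with 39.7%. The retained-intron share was 40.5 ± 2.10 and 33.5 ± 7.48% in forebrain with CSF-1 and IL-34, which overlap, and 44.2 ± 2.19 and 33.3 ± 3.18% in cerebellum, which do not. The coding transcript alone had 26.8 ± 3.42 TPM with CSF-1 and 15.4 ± 1.59 TPM with IL-34 in forebrain, and 27.8 ± 1.41 and 14.1 ± 2.76 TPM in cerebellum, so both transcripts were lower with IL-34.

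Cdk6 was carried by Cdk6-203, of 697 nt, with 42.8%, and by Cdk6-202, of 11525 nt, with 42.3%. The long transcript alone had 18.2 ± 3.84 and 13.2 ± 1.31 TPM in forebrain with CSF-1 and IL-34, and 15.5 ± 0.879 and 10.4 ± 0.887 TPM in cerebellum. Cdkn1a was made up of Cdkn1a-201 (57.5%) and Cdkn1a-203 (41.6%), both coding, and Max of Max-201 (52.8%) and Max-202 (47.2%). Myc had 7 transcripts above 0, of which Myc-201 and Myc-205 have identical sequence and were given identical values, so a single Myc transcript is less certain than the gene sum. Reads were assigned by estimation, and transcript shares carry that uncertainty.

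**Figure D3:**
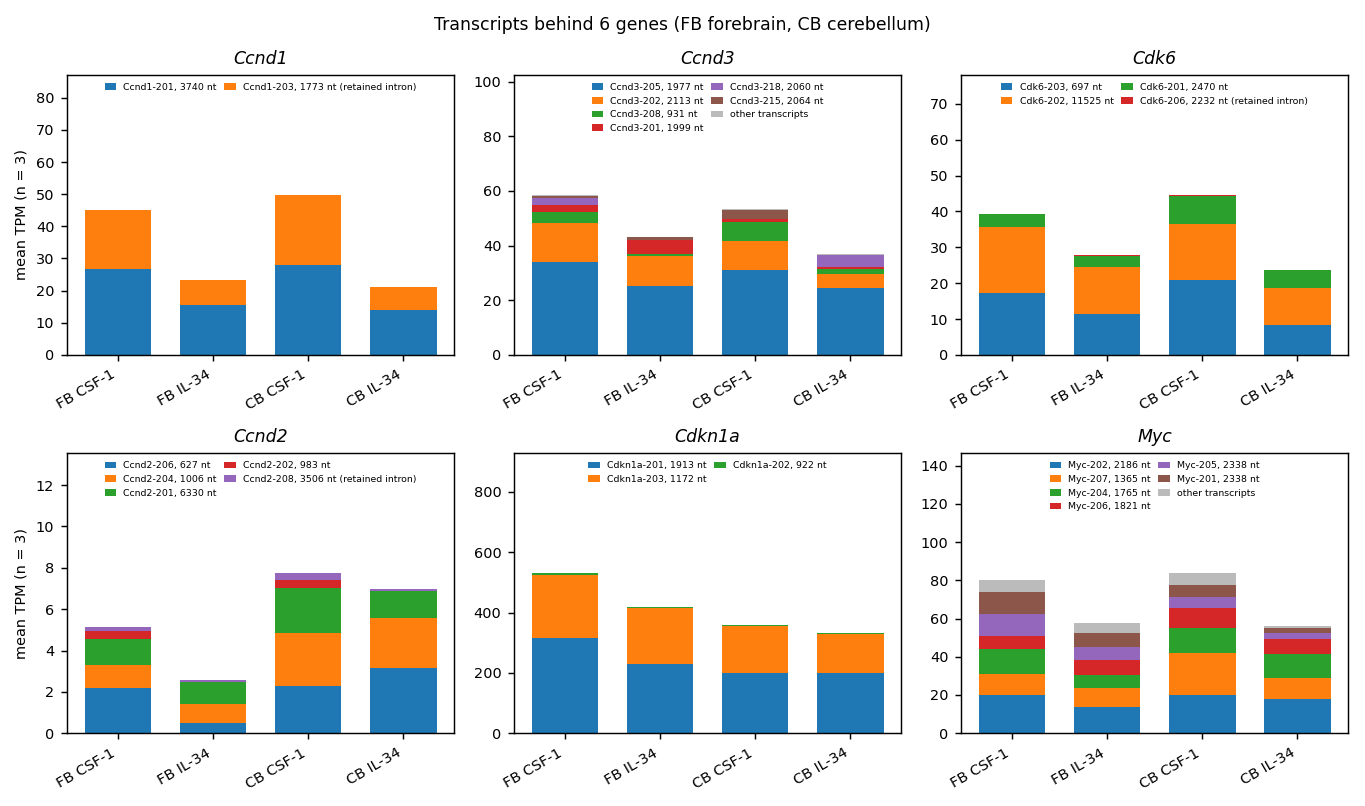
Mean TPM (n = 3) of the transcripts of Ccnd1, Ccnd3, Cdk6, Ccnd2, Cdkn1a and Myc in each group, stacked, with transcript lengths in nt. Both Ccnd1 transcripts are lower with IL-34, and Ccnd2 rests on transcripts of 627 and 1006 nt as well as the 6330 nt transcript.

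The rest of the pathway was read from lists of its genes. Of 29 tested G1 partners, RB and E2F genes, 8 fell and 0 rose for the mean of both regions. Of all genes, 10.7% fell and 2.73% rose. The 8 included E2f8, an E2F repressor (-0.85), the cyclin E gene Ccne2 (-0.38), E2f1 (-0.22) and E2f4 (-0.14). The list's median was -0.16. Its count ran from 1 to 10 over the other settings. It was 3 with the replicate number as a block and 2 under either rescaling, where E2f1 and E2f4 no longer passed. In forebrain 0 and in cerebellum 3 of these genes passed, against 1.2 and 12.8% of all genes. Of 20 G1/S genes driven by E2F, 12 fell and 0 rose, against 10.7 and 2.73% of all genes. Their median was -0.34, and those of smallest p were the replication helicase genes Mcm5 (-0.66) and Mcm6 (-0.34), Uhrf1 (-0.64) and Rrm2 (-0.85). In forebrain 5 of them fell, against 0.773% of all genes, and in cerebellum 9, against 9.82%. The forebrain count was 0 with the 6 forebrain libraries fitted alone and without IL-34 replicate 2, and the cerebellar count was 0 with the length floor as a covariate.

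Of 34 tested MYC target genes, 26 fell and 0 rose for the mean of both regions, against 10.7 and 2.73% of all genes. Their median was -0.28, against -0.07 over all genes. Under median-of-ratios scaling 16 fell and under quantile normalization 18. They included Ncl, which encodes nucleolin (-0.40), Rrp12, for ribosome assembly (-0.41), Srm, the gene of spermidine synthase (-0.37), and the helicase gene Ddx21 (-0.32). In forebrain 2 fell, against 0.773% of all genes. They were Rrp12 (-0.40, limma adjusted p = 0.0365) and Srm (-0.37, limma adjusted p = 0.0319). That count was 0 with the 6 forebrain libraries fitted alone, with no filter on low values, and without forebrain CSF-1 replicate 2, forebrain IL-34 replicate 2 or cerebellar CSF-1 replicate 2 or 3. In cerebellum 16 fell and 1 rose, against 9.82 and 3% of all genes. The cerebellar count was 0 with the length floor as a covariate. Of 18 tested genes of the wider MYC, MAX and MLX network, 1 fell for the mean of both regions, against 10.7% of all genes. It was Wdr5 (-0.31), a subunit of histone methyltransferase complexes. In cerebellum Wdr5 was the 1 gene of these that fell (-0.35, limma adjusted p = 0.0493), against 9.82% of all genes. That call was at the edge, and 0 of these genes fell there under median-of-ratios scaling or quantile normalization. In forebrain 0 passed in limma, where 1.2% of all genes did.

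Of 18 tested FOXO and p53 regulators and targets, 2 rose and 4 fell, against 2.73 and 10.7% of all genes. Btg1, an antiproliferative gene (0.29), and Btg2 (0.23) rose. Ccng1 (-0.38), Zmat3 (-0.26), Mdm2 (-0.21) and Bcl6 (-0.17) fell. The list's median was -0.04, and it was 0.03 and 0.01 under the rescalings, where 3 rose and 2 fell. Between regions 2 of the 18 passed with CSF-1, where 6.71% of all genes did, and 3 with IL-34, where 13.5% did. Ccng1 and Mdm2 were lower in cerebellum with either ligand, as Cdkn1a was, and Bcl6 was higher there with IL-34 (0.24, limma adjusted p = 0.0260). Ccng1 differed by -0.41 with CSF-1 (limma adjusted p = 0.0216) and -0.52 with IL-34 (limma adjusted p = 0.00380). Mdm2 differed by -0.28 (limma adjusted p = 0.0110) and -0.35 (limma adjusted p = 0.00214).

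**Figure D4:**
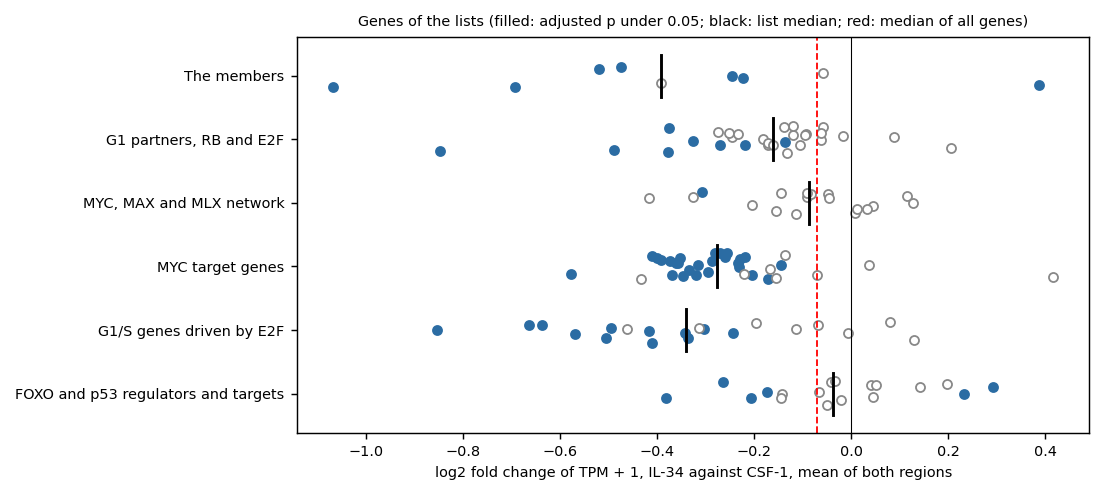
Log2 fold change of TPM + 1 for IL-34 against CSF-1, as the mean of both regions, of each tested gene in the named lists; each point is a gene, filled where the limma adjusted p is under 0.05, black bars are list medians and the red line is the median of all 12419 genes. The MYC target genes centre on -0.28 and the G1/S genes on -0.34, left of the median of all genes at -0.07.

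Genes were ranked by Pearson's r of log2(TPM + 1) across the 12 libraries, among 8814 tested genes with a mean of at least 5 TPM. Symbols of predicted genes, clones, pseudogenes and mitochondrial genes were left out of that ranking. Those whose level followed Ccnd1 most closely were Slc7a5, an amino acid transporter gene (r = 0.978), Plau, the gene of urokinase (r = 0.977), Acot7 (r = 0.977) and Apbb1ip (r = 0.972). Slc7a5 had 37.6 ± 3.74 and 27.1 ± 2.37 TPM in forebrain with CSF-1 and IL-34, and 40.1 ± 0.272 and 27.5 ± 2.40 TPM in cerebellum. For Mxd4 the closest were Cd200r4 (r = 0.897), the cathepsin L gene Ctsl (r = 0.868), Ccrl2 (r = 0.858) and the histone gene Hist3h2a (r = 0.825). These describe the libraries, which share their groups, and carry no test.

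Markers of other cells that mixed glial cultures hold were low and are set beside the results. The 9 astrocyte markers summed to between 30.4 and 33.5 TPM in the forebrain libraries and between 15.3 and 20.8 TPM in the cerebellar ones, moving with region as Cdkn1a did. In cerebellum 27.9% of all genes were lower with IL-34 without overlap. So were 6 of the 10 genes, the 5 that fell there and Cdkn1a. The summed markers of 5 cell types were also lower there without overlap. They were those of astrocytes (18.2 to 20.8 TPM with CSF-1, 15.3 to 16.5 with IL-34), the oligodendrocyte lineage (164 to 170 and 135 to 149), neurons (1.25 to 1.54 and 0.667 to 0.880), fibroblasts and mural cells (3.91 to 5.03 and 3.11 to 3.30) and endothelium (12.2 to 12.9 and 9.87 to 11.8). In forebrain the ligands overlapped in all 5. The summed neuronal markers lay between 0.667 and 3.83 TPM, those of fibroblasts and mural cells between 3.11 and 12 TPM, those of endothelium between 7.04 and 12.9 TPM, and those of the oligodendrocyte lineage between 123 and 170 TPM, mostly Cnp and Mbp, with Mog listed at 0 in all forebrain libraries. Markers of border-associated macrophages and monocytes lay between 31.4 and 156 TPM. The part of other cells in the differences of the 10 genes was not tested.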

How the data were processed

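The 12 libraries of cultured mouse microglia were prepared by SMART-Seq v4 chemistry, per the labels' protocols. The extraction text in the labels names human tissue, while the organism and cell type are mouse. The authors deposited TPM per transcript, estimated with kallisto 0.43.0 on GRCm38, per the submitters' processing notes; no source used here gives a filter or a bias correction. Because TPM is a share, genes that rise push the others down, and genes that overlap on opposite strands share reads, since this chemistry does not mark strand.

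TPM was summed per gene and tested as log2(TPM + 1) with limma 3.58.1 under R 4.3.3, a scale that understates changes of low genes. The fit had 4 group means, a variance trend, 8 residual degrees of freedom and 6 two-sided contrasts. Genes needed at least 1 TPM in at least 3 libraries, and the threshold was an adjusted p of 0.05. The fit was tested on simulated data. Transcript lengths, types and gene positions came from GENCODE M21 on GRCm38, in which 98.6% of transcripts were found. The length floor is the 1 percent quantile of length over a library's transcripts with a TPM of 5 or above.

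All 10 genes are named in each group, with up to 4 genes of smallest p per list. Btg2, Zmat3, Cdkn1c, Flt1 and Map2, and others in lists of 5 or fewer, were named after their values were seen. A result of the MYC, MAX and MLX list in cerebellum is not reported here. The genes, the gene and marker lists and the tests were chosen with earlier results of these data known. Alternatives covered the pseudocount, filters, scaling, the variance trend, the replicate block, the libraries fitted, transcripts of 1000 nt or more, removal of length and GC trends, the length floor and the most abundant transcript. Leaving out the cerebellar IL-34 libraries, and the alternatives for the lists, were chosen after seeing the data.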

Additional observations from a re-analysis of the deposited data

How the results depend on the processing

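Of the 9 tested genes, 7 passed between ligands for the mean of both regions. Of these, 4 passed with the length floor as a covariate and 3 with the most abundant transcript of each gene, and all other settings gave 6 or 7. In forebrain 5 passed, against 0 with only the groups compared, 1 with the most abundant transcript and 1 to 5 when 1 library was left out. With transcripts of 1000 nt or more 6 passed there, as with trends removed as well. In cerebellum 5 passed, against 1 with the length floor, 2 with the most abundant transcript and 3 to 5 when 1 library was left out. Between regions with CSF-1 the count was 1, against 3 with transcripts of 1000 nt or more and 3 with trends removed as well. With IL-34 it was 4, against 2 with no filter on low values, 0 with the length floor, 1 with the most abundant transcript and 2 to 4 when 1 library was left out. It was 5 with the filter at 5 TPM and with quantile normalization. The cause was not tested.

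Signs turned only in differences that had not passed. Median-of-ratios scaling turned Cdk4 (0.021 for the mean of both regions, 0.026 in forebrain and 0.015 in cerebellum), and in cerebellum Ccnd2 (0.051) and Cdkn1a (0.0018). Between regions it turned Mxd4 with CSF-1 (-0.00587) and Myc with IL-34 (0.0035). Quantile normalization turned Cdk4 in forebrain (0.043), Ccnd2 in cerebellum (0.013) and Mxd4 between regions with CSF-1 (-0.00820). Transcripts of 1000 nt or more turned Cdk4 in forebrain (0.029) and Mxd4 between regions with CSF-1 (-0.024). With trends removed as well, Cdk4 turned for the mean (0.0011) and in forebrain (0.072), and between regions Cdk6 (-0.057) and Mxd4 (-0.10) with CSF-1 and Myc with IL-34 (0.00063). In the interaction, transcripts of 1000 nt or more turned Ccnd2 (-0.0916), trends removed turned Ccnd2 (-0.00962) and Cdk6 (0.015), the length floor turned Ccnd2 (-0.0679), Ccnd3 (0.0355) and Cdk4 (0.028), and the most abundant transcript turned Ccnd3 (0.0957), Myc (0.353) and Max (0.341). The length floor turned Ccnd1 (0.083), Cdk6 (0.21) and Myc (0.0011) between regions with IL-34. The most abundant transcript turned Ccnd2 (0.58) and Cdkn1a (0.0077) between ligands in cerebellum, and between regions Mxd4 with CSF-1 (-0.087) and Myc with IL-34 (0.37). Leaving out 1 library turned Cdk4 (-0.083 to 0.031) and Max (-0.13 to 0.029) in forebrain, Ccnd2 in cerebellum (-0.39 to 0.26), Cdk4 (-0.099 to 0.029) and Mxd4 (-0.044 to 0.11) between regions with CSF-1, and Ccnd1 (-0.27 to 0.034) and Myc (-0.0501 to 0.013) with IL-34.

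Same-numbered libraries did not deviate together as a rule (18 pairs, 5 of them with r over 0.1, median r = -0.022). Their r ran from -0.454 to 0.458, against -0.455 to 0.569 in pairs of other numbers. With 3 libraries per group this cannot decide whether the numbers pair the samples. With the replicate block, 6 genes passed for the mean of both regions, 4 in forebrain, 5 in cerebellum, 0 in the interaction, and 1 and 4 between regions with CSF-1 and IL-34. Max for the mean and Mxd4 in forebrain lost their calls. The list counts for the mean of both regions ran from 1 to 10 (G1 partners, 8 as reported), 0 to 5 (MYC, MAX and MLX network, 1), 11 to 31 (MYC target genes, 26), 8 to 18 (G1/S genes, 12) and 3 to 8 (FOXO and p53, 6). In forebrain they ran from 0 to 5, 1, 10, 12 and 4 in the same order (0, 0, 2, 5 and 1 as reported), and in cerebellum, leaving out the MYC, MAX and MLX network, from 0 to 6, 28, 16 and 5 (3, 17, 9 and 3 as reported). Read depth is unknown, so the limits on low genes such as Cdkn1b and Ccnd2 cannot be given as counts.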
